A study of Mus musculus with 6 samples.

Results

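Among the autosomal protein-coding genes of mouse MLL-AF9 leukemia cells, 42 of 20855 (0.201%) averaged at least 2 CPM (counts scaled to a library total of 1000000) in the 3 libraries labelled Rbm5 knockout and under 0.5 CPM in the 3 libraries labelled wild type. These 42 genes, out of 56748 rows in the table, are described here. They were chosen on the same values that are given below, so their levels and the difference between the groups are a description of the choice and carry no test. Of the 42 genes, 40 lie on numbered autosomes and 2 on unplaced scaffolds. The reverse choice, under 0.5 CPM in knockout and at least 2 CPM in wild type, held 56 genes.

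The knockout group held libraries 31, 32 and 40, of genotype Rbm5 KO, and the wild-type group held libraries 25, 27 and 29, of genotype Rbm5 WT. Both groups are MLL-AF9 leukemia from bone marrow, a myeloid leukemia of mice driven by the fusion oncoprotein of MLL, a histone methyltransferase, and its partner AF9. The splicing factor RBM5 binds RNA, and the study asked how its loss acts on the gene program of the leukemia. The labels call the replicates independent and describe the source both as whole marrow and as cultured cells, and whether non-leukemic marrow cells were present is not stated. How Rbm5 was deleted, the sex and age of the mice and the number of clones are not given either.

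Total counts were 26359299 to 27638075 in knockout and 27140474 to 31807588 in wild type. Rbm5 itself was at 262, 265 and 223 CPM in knockout 31, 32 and 40, against 243, 227 and 174 CPM in wild-type 25, 27 and 29, with a log2 fold change of 0.34 and an edgeR adjusted p of 0.107. The targeted gene was therefore not lower in the libraries labelled knockout, and knockout and wild type below mean the labels. Under the same 2 thresholds, 4 Y-linked protein-coding genes also appeared (Ddx3y, Eif2s3y, Kdm5d and Uty, with averages of 20.8 to 107 CPM in knockout and 0 in wild type), so sex and the label cannot be told apart in any value below. In bulk RNA, fewer cells of a type and less RNA per cell also cannot be told apart.

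Leukemia cells of this kind are arrested at a myeloid progenitor stage. Normal myeloid maturation turns on granule proteins, pattern-recognition receptors, chemokines and protease inhibitors of the stefin family. Many of the 42 genes are better known from other tissues: Col6a6 from the matrix of connective tissue, Slc6a12 from kidney, Ugt8a from myelinating glia, and Psma8 and Nutm1 from testis.

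The starts of these genes are shown first, because the sequence just before a start site is one feature that the choice did not use. RefSeq's table for GRCm38.p6 held windows for 25 of the 42 genes (34 windows, from 250 bases before to 50 after a start), and each stretch below is the 250 bases before the start, 5' to 3' on the gene's own strand. Gene positions given with the values further on are instead those of the deposited table, which names no build and places these genes elsewhere, so they cannot be set against the windows. The first 3 genes are those with the highest knockout averages (Col6a6 and Dock1) and the most even knockout values (Sva), and capitals mark CpG dinucleotides, of which the stretches hold 29 in Dock1 (chr7:134670437-134670686, plus strand), 10 in Col6a6 (chr9:105828086-105828335, minus strand) and 0 in Sva (chr6:42038144-42038393, plus strand).
Dock1: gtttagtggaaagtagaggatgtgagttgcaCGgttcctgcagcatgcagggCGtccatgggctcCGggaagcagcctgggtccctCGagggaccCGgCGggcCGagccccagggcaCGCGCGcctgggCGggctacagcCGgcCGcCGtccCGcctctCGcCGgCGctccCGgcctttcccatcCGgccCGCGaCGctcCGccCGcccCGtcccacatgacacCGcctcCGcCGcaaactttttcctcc
Col6a6: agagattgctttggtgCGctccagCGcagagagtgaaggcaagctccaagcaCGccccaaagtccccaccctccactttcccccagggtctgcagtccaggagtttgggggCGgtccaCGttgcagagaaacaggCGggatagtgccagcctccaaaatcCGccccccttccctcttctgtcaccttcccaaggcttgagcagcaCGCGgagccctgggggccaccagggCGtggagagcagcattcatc
Sva: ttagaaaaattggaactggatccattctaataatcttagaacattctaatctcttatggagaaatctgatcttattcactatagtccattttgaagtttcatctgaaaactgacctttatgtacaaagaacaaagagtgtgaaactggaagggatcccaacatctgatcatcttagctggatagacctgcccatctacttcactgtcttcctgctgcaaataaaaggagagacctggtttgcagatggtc
The 3 stretches run from a CpG-rich start to one with none. Over the windows, the median number of CpG was 5 for the 42 genes' 34 windows and 7 for all 32851 windows, and 29.4% against 31.4% had 3 or fewer.

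The other stretches are from genes grouped below under innate immunity and macrophages that were high in knockout library 40 or 31. Capitals mark letters shared with a known motif, and every gene shown is one with a match. Of the others of that group with a window, Clec2g, Epx and Saa3 also held a match to a motif searched. Cmklr1 and Anpep held none. Acod1 (chr14:103046762-103047011, plus strand) held TATAAA, the TATA box, starting 28 bases before the start. Marco (chr1:120505025-120505274, minus strand) held GGGTCTTTCC, a match to the NF-kB letters (GGG, any 3 bases, then TTCC), starting 30 bases before the start. Lyz1 (chr10:117292869-117293118, minus strand) held TTAAGCAA, a match on the opposite strand to the C/EBP letters TTGCNNAA, starting 209 bases before the start.
Acod1: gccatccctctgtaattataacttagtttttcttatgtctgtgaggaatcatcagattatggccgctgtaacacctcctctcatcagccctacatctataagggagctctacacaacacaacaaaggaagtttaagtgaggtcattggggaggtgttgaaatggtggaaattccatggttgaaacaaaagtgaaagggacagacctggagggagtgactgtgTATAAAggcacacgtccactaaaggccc
Marco: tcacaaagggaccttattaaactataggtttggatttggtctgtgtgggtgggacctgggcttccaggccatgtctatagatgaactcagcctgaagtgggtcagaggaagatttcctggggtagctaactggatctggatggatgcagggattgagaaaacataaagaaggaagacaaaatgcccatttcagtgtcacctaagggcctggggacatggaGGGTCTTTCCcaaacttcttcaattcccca
Lyz1: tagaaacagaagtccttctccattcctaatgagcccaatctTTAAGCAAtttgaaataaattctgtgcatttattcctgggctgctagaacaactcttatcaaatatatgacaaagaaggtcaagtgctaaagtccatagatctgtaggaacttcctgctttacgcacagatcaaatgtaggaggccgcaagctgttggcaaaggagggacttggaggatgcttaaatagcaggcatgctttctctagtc
Searched on both strands of the whole windows, the TATA box was in 5.88% of the 34 windows, against 13.6% of all windows. The C/EBP letters were in 11.8% against 10.8%, the NF-kB letters in 11.8% against 5.56%, the PU.1 letters GAGGAAGT in 5.88% against 3.20%, and the AP-1 letters TGANTCA in 8.82% against 7.81%. Each of these shares rests on 2 to 4 windows, and a match is only a run of letters.

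The 42 genes were low even where they were present. Knockout averages ran from 2.00 CPM (Gpr27) to 20.9 CPM (Col6a6) with a median of 2.72 CPM, against wild-type averages of at most 0.492 CPM (Muc3a) with a median of 0.280 CPM. In knockout, 33 of the 42 stood under 5 CPM, 24 of them under 3 CPM, and 3 stood over 10 CPM (Col6a6, Dock1 and Slc6a12). Among the 15374 autosomal coding genes with a knockout count, the 42 lay between percentiles 32.5 and 54.1 of knockout level. Per kilobase of gene length in the table, the highest knockout averages were those of Cstdc6 (25.1 CPM per kb), the unnamed scaffold gene ENSMUSG00000079192 (14.5), Lyz1 (5.69), Slc6a12 (4.35) and Sva (3.69), against at most 1.5 CPM per kb in wild type for each.

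Few of the 42 genes were absent from wild type. Of the 42, 34 had a count in every wild-type library and 18 had a wild-type library at 0.5 CPM or more. Only Ugt8a, Psma8, Sva and Zfp987 had 0 counts in all 3 wild-type libraries, which allows up to 0.0332 CPM over the group. Against that limit of 3 counts over the group knockout was at least 149-fold higher for Ugt8a, 117-fold for Psma8, 72.3-fold for Sva and 61.8-fold for Zfp987. Mecom and Tmem45a2 had 1 to 3 wild-type counts, with knockout to wild-type ratios of 763 (95% counting interval 137 to 30184) and 105 (28.7 to 874). Intervals and limits cover counting error only.

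**Figure D1:**
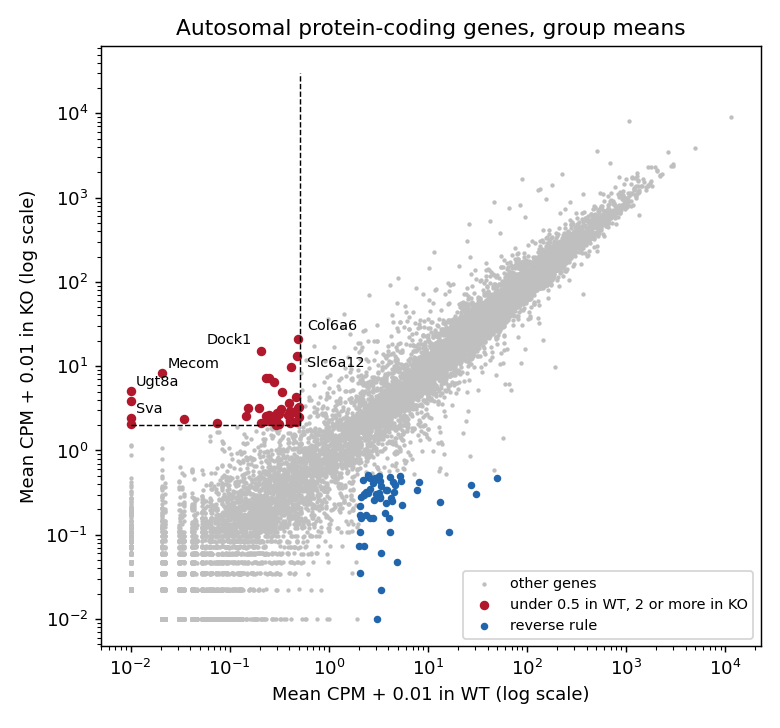
Mean CPM + 0.01 of autosomal protein-coding genes in knockout (vertical) against wild type (horizontal), both on log scales, with 1 point per gene with a count. Red points are the 42 genes (dashed lines: 2 CPM in knockout, 0.5 CPM in wild type), blue points the 56 genes of the reverse choice and grey points all others; red points crowd just above the 2 CPM line, with Col6a6, Dock1 and Slc6a12 above the rest.

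For 34 of the 42 genes every knockout library was above every wild-type library, where 11.5% of all 15963 genes tested had such an order. The other 8 overlapped: Marco, Psma8, Cmklr1, Cd83, Stap2, Saa3, Anpep and Gpr27. In edgeR's quasi-likelihood fit over all genes, 39 of the 42 were tested (Psma8, Nr4a3 and Epx failed the count filter, having too few libraries with enough counts) and 24 were called higher at an adjusted p under 0.05, beside 5.45% of all genes tested (8.57% in either direction). Because the genes were picked on this contrast, nothing is read from either count. Their median log2 fold change was 3.41, range 2.38 to 10.2, against -0.01 over all genes tested.

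The word on does not hold evenly over the knockout libraries. Of the 42 genes, 6 reached 2 CPM in all 3 of them (Col6a6, Dock1, Slc6a12, Cstdc6, Lipg and ENSMUSG00000079192), 24 in exactly 2 and 12 in exactly 1. Counted by library, 25 reached 2 CPM in knockout 31, 17 in knockout 32 and 36 in knockout 40. Only Dock1 was at 2 CPM or more in every knockout library and under 0.5 CPM in every wild-type library. In 11 of the 42 (26.2%) at least 1 knockout library stood under 0.5 CPM, the limit set for wild type. Without wild-type library 27, the choice gave 43 genes, of which 12 reached 2 CPM in every knockout library.

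The share of a gene's summed knockout CPM that fell in its highest library measures this, with 33.3% for an even gene. Its median was 54.6% over the 42 genes (interquartile range 48.0 to 73.9%, range 36.9% for Sva to 90.7% for Epx). It was 39.6% over the 3284 other autosomal coding genes of the same range of knockout averages, and 51.0% over the 56 genes of the reverse choice, there taken over the wild-type libraries. The highest library held over 50% for 29 of the 42 (69.0%), against 8.98% of the other genes of that range. A level of 2 CPM in all 3 knockout libraries was reached by 14.3% of the 42, against 89.7% of the other genes of that range. Those other genes lay higher in the range. Their median levels were 8.92, 9.52 and 8.23 CPM in knockout 31, 32 and 40, against 2.46, 1.35 and 3.65 CPM for the 42. A choice by group averages near a threshold lets in genes with 1 high library, so these shares describe the choice. For 41 of the 42 the 95% counting intervals of the highest and lowest knockout library did not overlap, the exception being Sva.

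**Figure D2:**
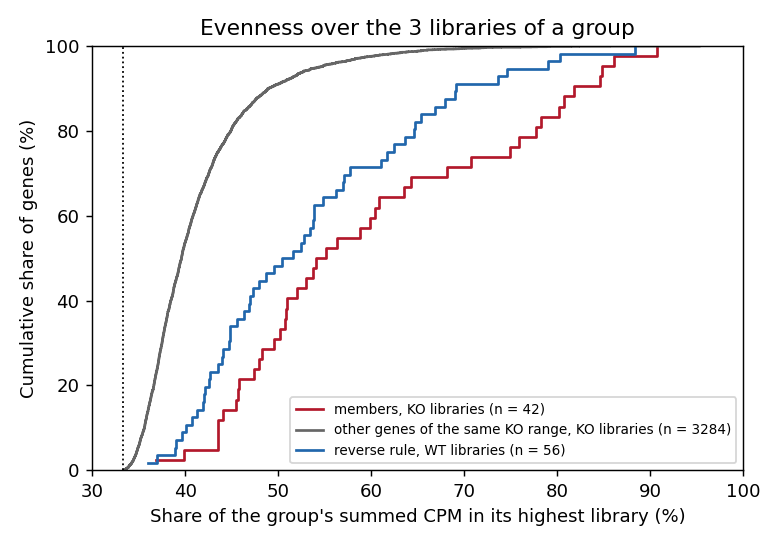
Cumulative share of genes (%) against the share of a group's summed CPM held by its highest library (%), for the 42 genes over the knockout libraries (red), 3284 other coding genes of the same knockout range (grey) and the 56 genes of the reverse choice over the wild-type libraries (blue). The dotted line at 33.3% is a gene with equal libraries; the red line lies to the right of the grey one, with medians of 54.6% and 39.6%.

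Library 40 carried most of the peaks. It was the highest knockout library for 23 of the 42 genes, library 31 for 12 and library 32 for 7, while library 32 was the lowest for 27, library 31 for 13 and library 40 for 2. The summed level of the 42 genes was 183, 124 and 243 CPM in knockout 31, 32 and 40, against 11.3, 10.6 and 12.7 CPM in wild-type 25, 27 and 29. Among the other coding genes of the same knockout range, library 40 was the highest for 18.8% and library 32 for 48.4%. Without library 40, 29 genes met the rule and 15 of the 42 were lost, among them Marco, Ccl24, Cd83, Cmklr1 and Clec2g. Without library 31 the lost genes were 9, among them Epx, Psma8, Ankrd33b and Gpr27, and without library 32 they were 7, among them Ugt8a, Nutm1, Has2 and Gpr55. Whichever single library was left out, 10 genes stayed: Dock1, Cstdc6, Mecom, Lyz1, Ankrd22, Lipg, ENSMUSG00000079192, Arg2, Chrm3 and Sva.

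**Figure D3:**
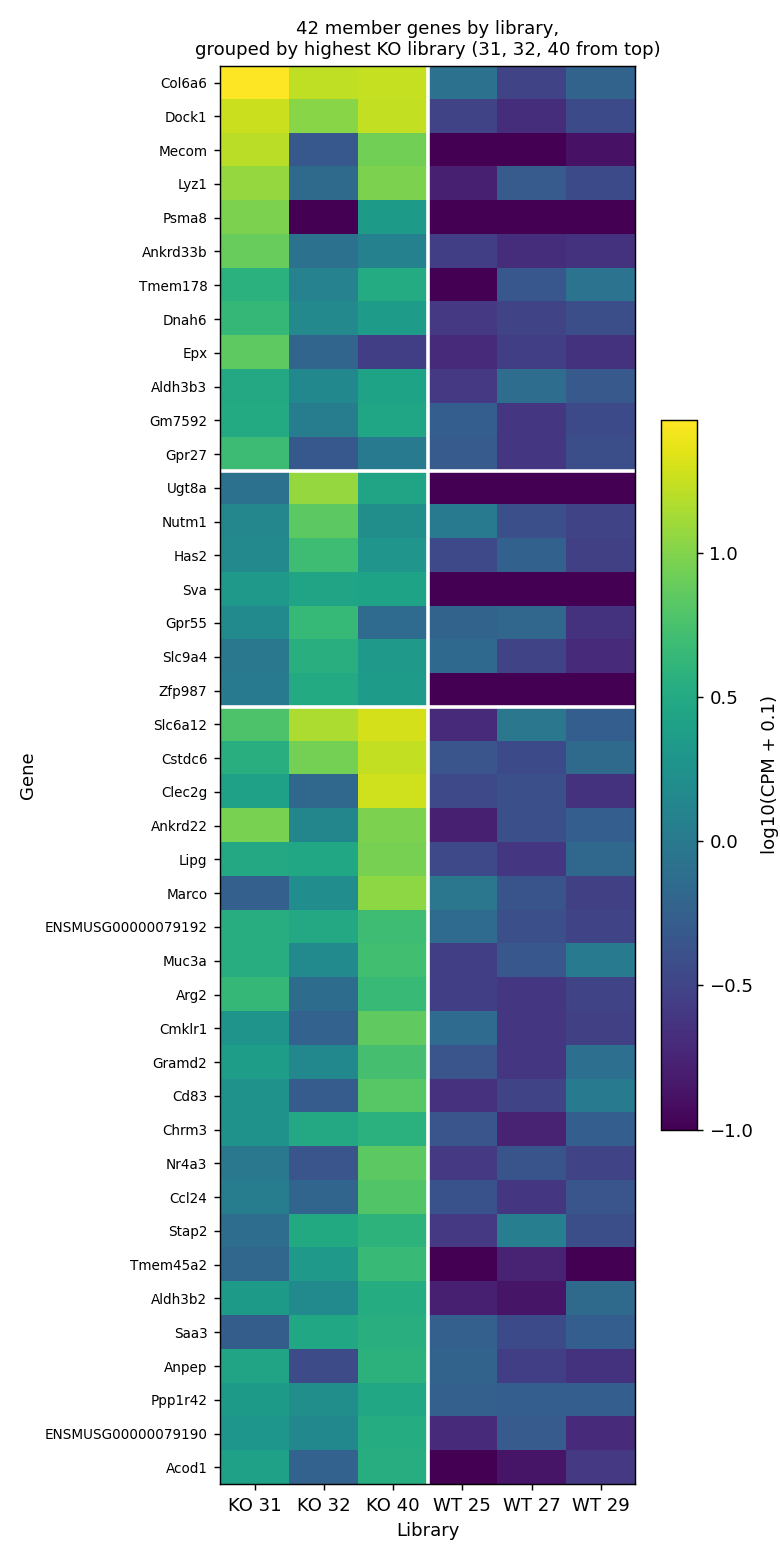
Level of each of the 42 genes in each library as log10(CPM + 0.1), with knockout libraries left of wild-type libraries and genes grouped by their highest knockout library. Of the 42 genes, 12 peak in knockout 31, 7 in knockout 32 and 23 in knockout 40, and for most genes the wild-type columns are darker than the knockout ones.

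Grouped by what the proteins do, the largest group was that of innate immunity and macrophages, with 12 of the 42. The grouping was made by hand after the genes were known. It held a lysozyme (Lyz1), a scavenger receptor (Marco), a chemokine that attracts eosinophils (Ccl24), the chemerin receptor (Cmklr1), an activation marker of dendritic cells (Cd83), the enzyme that makes itaconate in activated macrophages (Acod1), mitochondrial arginase (Arg2), an acute-phase protein (Saa3), a C-type lectin (Clec2g), the aminopeptidase CD13 (Anpep), eosinophil peroxidase (Epx) and a member of the stefin family of cysteine protease inhibitors (Cstdc6). Of the 12, 10 were highest in knockout library 40 and 8 lowest in knockout library 32. Their summed level was 39.2, 17.5 and 91.0 CPM in knockout 31, 32 and 40, against 3.84, 2.62 and 3.74 CPM in wild-type 25, 27 and 29. Groups did not overlap for 7 of the 12, against 34 of all 42 and 11.5% of all genes tested.

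Several of these genes were far higher in knockout library 40 than in libraries 31 and 32. Marco (chromosome 1, 120402267 to 120432753) was at 0.470, 1.52 and 10.9 CPM in knockout 31, 32 and 40, against 0.849, 0.332 and 0.190 CPM in wild-type 25, 27 and 29. Knockout library 31 was thus below wild-type library 25 for this gene, and library 40 held 84.6% of its knockout sum. Clec2g was at 2.46, 0.569 and 18.8 CPM in knockout, against 0.252, 0.295 and 0.127 CPM in wild type. Ccl24 was at 0.977, 0.531 and 6.11 CPM in knockout, against 0.314, 0.147 and 0.349 CPM in wild type. Both were highest in library 40, and no wild-type library reached a knockout one. Cd83 was at 1.74, 0.417 and 6.45 CPM in knockout and 0.126, 0.221 and 0.952 CPM in wild type. Cmklr1 was at 1.77, 0.493 and 7.12 CPM in knockout and 0.629, 0.147 and 0.190 CPM in wild type. For both, the lowest knockout library, 32, lay below the highest wild-type one.

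Other innate genes were shared by libraries 31 and 40 and low in library 32. Lyz1 (chromosome 10, 117123702 to 117128773) was at 11.7, 0.607 and 9.30 CPM in knockout 31, 32 and 40, against 0.0629, 0.405 and 0.254 CPM in wild-type 25, 27 and 29. Acod1 was at 2.46, 0.493 and 3.34 CPM in knockout and 0, 0.0368 and 0.159 CPM in wild type. Arg2 was at 4.27, 0.645 and 4.52 CPM in knockout and 0.189, 0.147 and 0.222 CPM in wild type. In these 3 genes library 32 was the lowest knockout library and still above every wild-type one. Anpep was also lowest in library 32, at 2.61, 0.266 and 3.71 CPM in knockout and 0.503, 0.184 and 0.127 CPM in wild type, with library 32 inside the wild-type range. Saa3 was instead low in library 31, at 0.434, 2.81 and 3.37 CPM in knockout and 0.472, 0.258 and 0.444 CPM in wild type.

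Lyz1 has a near-identical neighbour, Lyz2, the lysozyme of myeloid cells, which was at 2350, 1964 and 3428 CPM in knockout and 436, 1032 and 581 CPM in wild type. Lyz1 amounted to 0.496%, 0.0309% and 0.271% of Lyz2 in knockout libraries 31, 32 and 40, against 0.0144%, 0.0393% and 0.0436% in wild-type 25, 27 and 29. The ratio was not constant over libraries, and in knockout library 32 it lay within the wild-type range. How reads shared by the pair were split is not stated, so the Lyz1 counts are uncertain. Cstdc6 has close relatives in the same cluster on chromosome 16 and is uncertain for the same reason. It stood at 3.36, 8.61 and 17.1 CPM in knockout 31, 32 and 40, against 0.346, 0.258 and 0.603 CPM in wild-type 25, 27 and 29. Its relative Stfa1 was at 646, 1042 and 1246 CPM in knockout and 176, 178 and 110 CPM in wild type (log2 fold change 2.80, edgeR adjusted p = 0.00608), and Cstdc5 at 549, 866 and 1056 CPM in knockout and 92.6, 76.8 and 84.0 CPM in wild type (3.42, edgeR adjusted p = 0.00262). These 3 genes were lowest in library 31 and highest in library 40 among the knockout libraries. The relatives Cstdc4 and Stfa2l1 had the same order. Cstdc4 was at 310, 515 and 773 CPM in knockout and 48.2, 35.2 and 44.5 CPM in wild type. Stfa2l1 was at 138, 215 and 332 CPM in knockout and 12.5, 7.96 and 14.3 CPM in wild type. Stfa2 and Stfa3 had another order, with library 32 lowest in knockout. Stfa2 was at 137, 98.3 and 203 CPM in knockout and 11.3, 3.57 and 16.0 CPM in wild type. Stfa3 was at 116, 80.5 and 139 CPM in knockout and 5.16, 4.50 and 5.23 CPM in wild type.

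Epx, the peroxidase of eosinophil granules (chromosome 11, 87754826 to 87766362), was the least even of the 42. It stood at 7.02, 0.531 and 0.185 CPM in knockout 31, 32 and 40, against 0.0943, 0.184 and 0.127 CPM in wild-type 25, 27 and 29, so that library 31 held 90.7% of the knockout sum. Of the 19 eosinophil, basophil and mast cell markers with a knockout count, 12, Epx included, were highest in library 31 among the knockout libraries. The summed level of that list without Epx was 393, 260 and 354 CPM in knockout and 524, 234 and 315 CPM in wild type, which overlap. Fcer1a, Tpsab1 and Tpsb2, markers of basophils and mast cells, had 0 counts in all 6 libraries. Prg2, the major basic protein of eosinophils, was the only one of 10 tested genes of the list called higher, at 64.0, 30.2 and 26.5 CPM in knockout and 5.88, 2.73 and 4.31 CPM in wild type (log2 fold change 3.34, edgeR adjusted p = 0.0103). In that list 0 were called lower by edgeR, with 2 higher and 2 lower unadjusted and 2 higher and 1 lower by DESeq2.

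The marker lists of neutrophils and of monocytes and macrophages were higher in sum in every knockout library than in every wild-type one, as the innate members were, and their part in the result was not tested. Of the 29 mature neutrophil markers tested, 20 were called higher and 0 lower by edgeR, with 28 higher and 0 lower at an unadjusted p under 0.05 and 27 higher and 0 lower by DESeq2. Their summed level was 14681, 23668 and 30453 CPM in knockout 31, 32 and 40, against 1887, 3949 and 4578 CPM in wild-type 25, 27 and 29. The sum was lowest in library 31 among the knockout libraries, but that order rests on 1 gene, Chil3. Chil3 was at 1662, 11679 and 11298 CPM in knockout 31, 32 and 40, against 422, 1374 and 1420 CPM in wild-type 25, 27 and 29. Without Chil3 the sum was lowest in knockout library 32, as it was for the innate members. Of the 29 genes, 22 were highest in knockout library 40. Leaving out knockout library 31 or 40 gave 10 called higher, and leaving out wild-type library 27 gave 12. Of the 23 monocyte and macrophage markers tested, 3 were higher and 0 lower (12 and 0 unadjusted, 9 and 0 by DESeq2), and without knockout library 31 or 40 or wild-type library 29 the 3 became 0, and without wild-type library 25 they became 1. Their summed level without Marco was 5429, 5153 and 6725 CPM in knockout and 2260, 3858 and 3143 CPM in wild type. The sum rests on a few abundant genes such as Lyz2, and 14 of the 24 markers with a knockout count, Marco included, were highest in library 40. Some markers of resident macrophages were near 0: Timd4 had 0 counts in knockout, and Spic and Ms4a7 averaged 0.753 and 0.727 CPM in knockout and 0.138 and 0.118 CPM in wild type. Ms4a7 (log2 fold change 2.68, edgeR adjusted p = 0.0498, and 0.0516 with total counts as the only scaling) was still 1 of the 3 called higher, with Csf1r and Lyz2. C1qa, C1qb, C1qc and Mrc1 had log2 fold changes of 1.92, 2.43, 2.06 and 1.81 and were not called. Of the 23 tested, 20 had a positive log2 fold change with TMM and 18 with total counts alone.

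The inflammatory list was also highest in library 40. Of its 20 genes, 18, Acod1 included, were highest in library 40 among the knockout libraries, and the summed level without Acod1 was 891, 896 and 1681 CPM in knockout 31, 32 and 40, against 485, 453 and 814 CPM in wild-type 25, 27 and 29. The neutrophil chemokine gene Cxcl2 was at 26.6, 15.6 and 233 CPM in knockout and 2.30, 2.14 and 7.99 CPM in wild type (edgeR adjusted p = 0.0973). Il1b, which encodes interleukin 1 beta, was at 17.2, 7.02 and 84.0 CPM in knockout and 1.07, 0.553 and 1.30 CPM in wild type (log2 fold change 5.36, edgeR adjusted p = 0.0484, and 0.0519 with total counts as the only scaling). Both showed a library 40 value several times those of libraries 31 and 32. Of 15 genes tested in the list, 4 were called higher (Icam1, Acod1, Il1rn and Il1b) and 0 lower by edgeR (8 and 0 unadjusted, 9 and 0 by DESeq2). Acod1 was picked on this contrast, so its call describes the choice. The 4 became 0 without knockout library 31 or wild-type library 25 or 27, and 1 without knockout library 40.

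**Figure D4:**
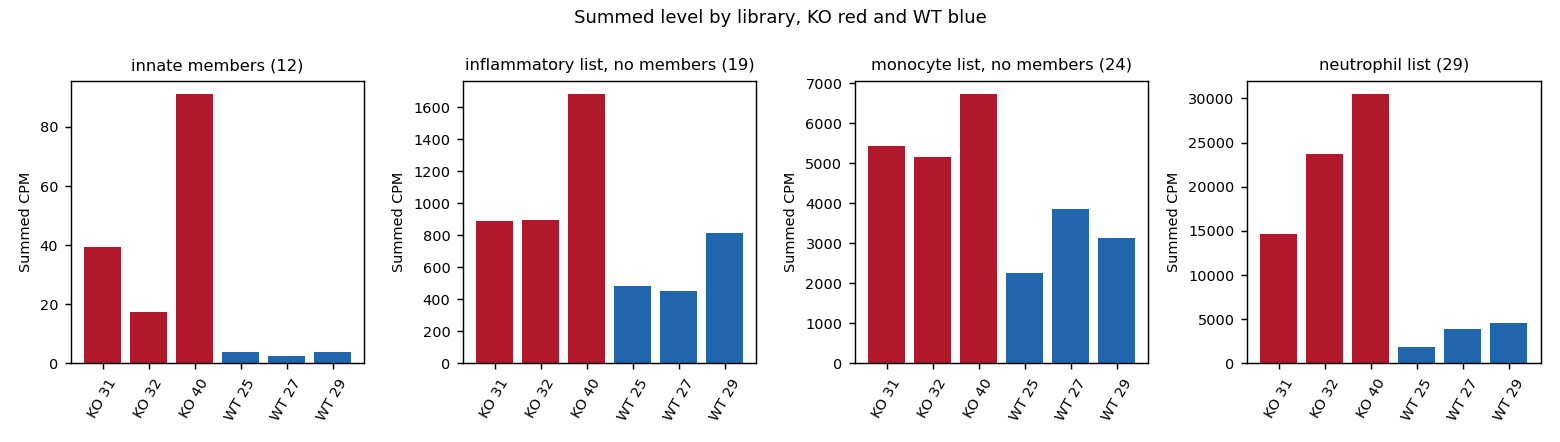
Summed CPM in each library (knockout red, left; wild type blue, right) of the 12 innate members, of 19 inflammatory and 24 monocyte and macrophage list genes without members, and of 29 mature neutrophil markers, each panel with its own scale from 0. Knockout library 40 is the highest bar in all 4 panels, at 91.0, 1681, 6725 and 30453 CPM.

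Of the 3 transcription regulators, Mecom had the highest level. Mecom (chromosome 3, 30005445 to 30602157) encodes the zinc-finger factor EVI1, which maintains blood stem cells and is activated by rearrangement in some human leukemias. It had 16.0, 0.379 and 8.52 CPM in knockout 31, 32 and 40, against 0, 0 and 0.0317 CPM in wild-type 25, 27 and 29. Knockout library 32, with 10 counts, was above every wild-type library (0, 0 and 1 counts) and far below knockout libraries 31 and 40. Its relative Prdm16 was at 0.651, 0.190 and 2.33 CPM in knockout and 0, 0 and 0.0317 CPM in wild type. The nearest coding genes, Egfem1 and Actrt3, averaged 0.0506 and 0 CPM in knockout and 0.123 and 0.0211 CPM in wild type. Of 12 stem and progenitor markers tested, 1 was called higher and 2 lower by edgeR (2 and 3 unadjusted, 2 and 3 by DESeq2). The gene called higher was Mecom itself, so that count describes the choice. Both counts became 0 without knockout library 31 or 40, and the number higher also became 0 without any single wild-type library. Without knockout library 32 the counts were 2 higher and 1 lower, and the number lower was also 1 once wild-type library 27 or 29 was removed.

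Nr4a3, an immediate-early nuclear receptor, was at 0.868, 0.341 and 6.74 CPM in knockout and 0.157, 0.332 and 0.222 CPM in wild type. Only library 40 was well above wild type for it. Its relative Nr4a1 was at 198, 217 and 577 CPM in knockout and 111, 169 and 312 CPM in wild type, also highest in library 40. Zfp987, a zinc-finger protein from a large family of similar genes on chromosome 4, was at 0.905, 3.11 and 2.19 CPM in knockout and 0 in each wild-type library. Such families share sequence, and its counts are uncertain. Together, 3 of the 42 (7.14%) belonged to a transcription factor family named in the table, against 6.93% of autosomal coding genes.

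The highest levels belonged to the group of matrix, mucin and cell-shape genes, with 5 of the 42. Col6a6 (chromosome 9, 105565008 to 105705359, minus strand) encodes a chain of collagen VI, a microfibril-forming collagen. It stood at 28.6, 16.6 and 17.4 CPM in knockout 31, 32 and 40, against 0.723, 0.221 and 0.507 CPM in wild-type 25, 27 and 29, with averages of 20.9 ± 6.72 and 0.484 ± 0.252 CPM (SD, n = 3 each). All 3 knockout libraries stood far above all wild-type ones. The log2 fold change was 5.52 ± 0.42 (SE). Without wild-type library 27 its wild-type average passed 0.5 CPM and it left the set.

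The other collagen VI chains did not share that pattern. Col6a3 ran the other way, at 0.145, 0.228 and 0.334 CPM in knockout and 13.6, 10.7 and 15.5 CPM in wild type (log2 fold change -5.67, edgeR adjusted p = 0.000635). Col6a4 was at 9.48, 5.61 and 3.82 CPM in knockout and 7.26, 4.90 and 4.60 CPM in wild type, which overlap. Col6a1, Col6a2 and Col6a5 averaged under 0.5 CPM in both groups. Of 12 genes tested in the collagen VI and matrix list, 2 were called higher (Col6a6 and Col5a1) and 1 lower (Col6a3). Col6a6 was picked on this contrast, so its call describes the choice. Col5a1, a fibrillar collagen, was at 28.3, 32.1 and 40.9 CPM in knockout and 3.33, 5.64 and 6.69 CPM in wild type (log2 fold change 2.82, edgeR adjusted p = 0.00464). Markers of stromal fibroblasts and osteoblasts, which make these collagens, summed to 144, 133 and 113 CPM in knockout and 227, 177 and 185 CPM in wild type, with 0 called higher and 1 lower of 9 tested by edgeR (2 and 2 unadjusted, 1 and 2 by DESeq2). The number lower was 1 without wild-type library 27 and 0 without any other single library, and without knockout library 31 there was 1 called higher.

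Dock1 (chromosome 7, 134272383 to 134775368, plus strand) encodes an exchange factor that activates the small GTPase RAC together with ELMO proteins, in cell migration and engulfment. It stood at 18.2, 10.5 and 17.0 CPM in knockout 31, 32 and 40, against 0.220, 0.111 and 0.254 CPM in wild-type 25, 27 and 29, with averages of 15.2 ± 4.14 and 0.195 ± 0.0749 CPM (SD, n = 3 each). The log2 fold change was 6.36 ± 0.41 (SE). Its highest library held 39.8% of the knockout sum, close to an even share. Dock2, the DOCK protein of blood cells, was at 490, 511 and 516 CPM in knockout and 427, 450 and 444 CPM in wild type (log2 fold change 0.32, edgeR adjusted p = 0.0746). Dock5 was called higher, at 154, 178 and 190 CPM in knockout and 143, 144 and 120 CPM in wild type. Its log2 fold change was 0.49 (edgeR adjusted p = 0.0433, and 0.0891 with total counts as the only scaling). Dock3 was lower, at 1.05, 0.948 and 0.889 CPM in knockout and 8.49, 4.75 and 2.44 CPM in wild type (log2 fold change -2.30, edgeR adjusted p = 0.0249). Of the 6 fits that left out a library, Dock3 was called in 1, that without wild-type library 29.

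**Figure D5:**
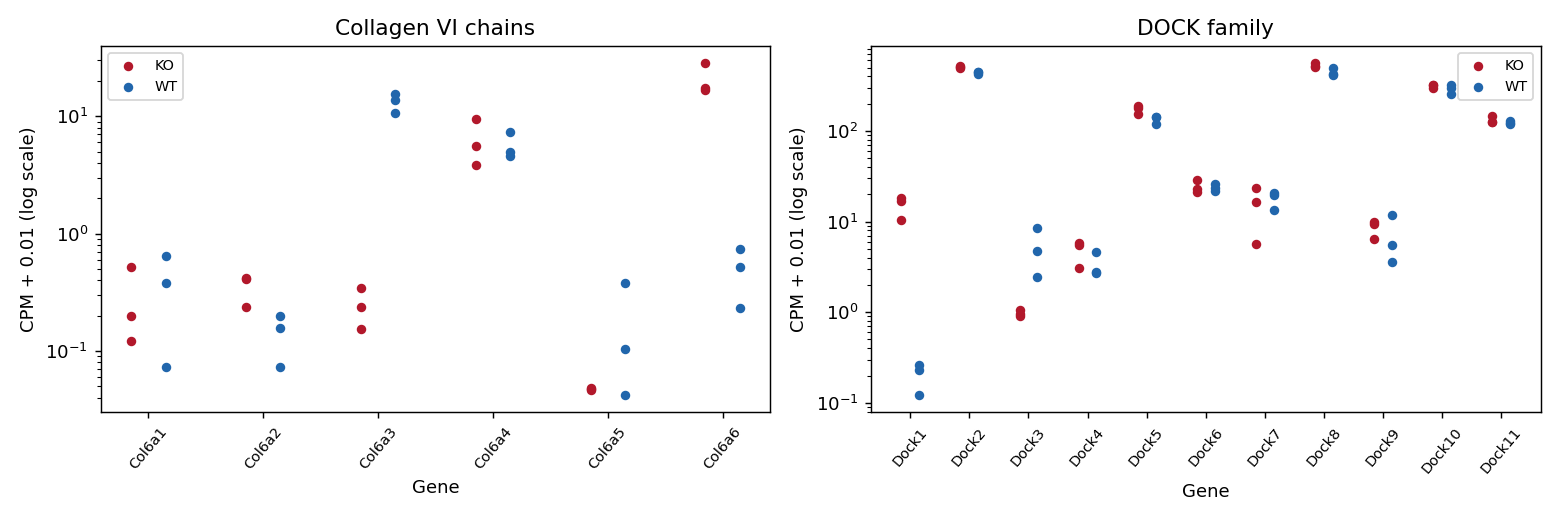
CPM + 0.01 on a log scale in each library for the collagen VI chains (left panel) and the DOCK family (right panel), with knockout in red left of wild type in blue. Col6a6 and Dock1 stand 1 to 2 log units higher in knockout, Col6a3 is higher in wild type, and most other family members overlap or differ little.

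The other 3 genes of this group were lower. Has2, a hyaluronan synthase, was at 1.34, 4.89 and 1.82 CPM in knockout and 0.252, 0.479 and 0.190 CPM in wild type. Muc3a, a mucin, was at 3.29, 1.37 and 5.04 CPM in knockout and 0.189, 0.368 and 0.920 CPM in wild type. Stap2, a signalling adaptor, was at 0.651, 3.04 and 3.82 CPM in knockout and 0.157, 1.03 and 0.285 CPM in wild type, where knockout library 31 lay below wild-type library 27. Has2 was thus highest in library 32, and the other 2 in library 40.

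The 6 membrane transporters and receptors were led by Slc6a12 (chromosome 6, 121320035 to 121342734), a carrier of betaine and GABA. It stood at 5.75, 14.3 and 19.8 CPM in knockout 31, 32 and 40, against 0.0943, 0.847 and 0.444 CPM in wild-type 25, 27 and 29. Groups were well separated, although the knockout values spread over more than 3-fold. The related carrier next to it, Slc6a13, was at 5.17, 12.6 and 9.56 CPM in knockout and 7.70, 6.26 and 4.31 CPM in wild type (edgeR adjusted p = 0.237). Chrm3, a muscarinic acetylcholine receptor, was at 1.70, 2.96 and 3.59 CPM in knockout and 0.346, 0.0737 and 0.444 CPM in wild type. Slc9a4, a sodium-proton exchanger, was at 0.868, 3.34 and 2.00 CPM in knockout and 0.597, 0.221 and 0.0952 CPM in wild type. Chrm3 was among the more even genes of the 42, its highest library holding 43.5%.

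The 3 others of that kind were carried by 1 or 2 libraries. Gpr55, a receptor for lysophosphatidylinositol, was at 1.37, 4.29 and 0.630 CPM in knockout and 0.503, 0.553 and 0.127 CPM in wild type. Gpr27, an orphan receptor and the lowest of the 42, was at 4.70, 0.379 and 0.926 CPM in knockout and 0.409, 0.147 and 0.285 CPM in wild type, with 78.3% of its knockout sum in library 31. Tmem178, a membrane protein, was at 3.58, 1.14 and 3.15 CPM in knockout and 0, 0.368 and 0.761 CPM in wild type. Knockout and wild-type libraries overlapped for Gpr27 and did not for Gpr55 and Tmem178.

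Enzymes of lipids and aldehydes made up 4 of the 42. Ugt8a (chromosome 3, 125658920 to 125732268), which makes the galactosylceramide of myelin, was at 0.724, 11.7 and 2.63 CPM in knockout 31, 32 and 40 and at 0 in each wild-type library. Knockout library 32 held 77.7% of its sum. Neuronal markers summed to 3.87, 1.29 and 2.41 CPM in knockout and 2.04, 1.51 and 2.60 CPM in wild type, and 6 of those 12 genes had 0 counts in all 6 libraries. Lipg, endothelial lipase, was at 2.93, 2.85 and 8.82 CPM in knockout and 0.252, 0.147 and 0.571 CPM in wild type. Endothelial markers summed to 177, 118 and 126 CPM in knockout and 217, 130 and 183 CPM in wild type, which overlap. The part of other cell types in the levels of Ugt8a and Lipg was not tested, and no list of glial markers was used.

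The aldehyde dehydrogenase genes Aldh3b3 and Aldh3b2 lie 225 bases apart on chromosome 19 and are near copies of each other, so their counts are uncertain. Aldh3b3 was at 2.97, 1.29 and 2.56 CPM in knockout and 0.157, 0.663 and 0.381 CPM in wild type. Aldh3b2 was at 2.10, 1.37 and 3.22 CPM in knockout and 0.0629, 0.0368 and 0.603 CPM in wild type. Library 32 was the lowest knockout library for both, and groups did not overlap. Aldh3b1, the relative expressed in these cells, was at 201, 187 and 198 CPM in knockout and 120, 144 and 133 CPM in wild type.

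Genes known from the male germ line, the seminal vesicle or cilia made up 5. Sva (chromosome 6, 42015328 to 42019785), seminal vesicle antigen, was the most even of the 42. It stood at 1.99, 2.66 and 2.56 CPM in knockout 31, 32 and 40 and at 0 in each wild-type library. The start of this gene is the stretch without CpG shown above, and its nearest coding genes, Sval3 and Tas2r139, had 0 counts in all 6 libraries. Psma8, a proteasome subunit of spermatocytes, was in contrast among the least even, at 9.33, 0 and 2.08 CPM in knockout and 0 in each wild-type library. The 0 in knockout library 32 allows up to 0.114 CPM.

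Dnah6, an axonemal dynein chain, was at 4.27, 1.33 and 2.15 CPM in knockout and 0.157, 0.221 and 0.285 CPM in wild type. Ppp1r42, a leucine-rich repeat protein of testis, was at 2.06, 1.56 and 2.85 CPM in knockout and 0.472, 0.442 and 0.444 CPM in wild type. Nutm1, a testis protein, was at 1.27, 6.83 and 1.56 CPM in knockout and 0.912, 0.295 and 0.222 CPM in wild type. Knockout library 32 was the high one for Nutm1 and the lowest one for Dnah6 and Ppp1r42.

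The other 7 genes were not assigned a role. Ankrd22, with ankyrin repeats, was at 9.08, 1.25 and 9.30 CPM in knockout and 0.0629, 0.295 and 0.444 CPM in wild type, with library 32 the lowest knockout library, as for Lyz1 and Acod1. Ankrd33b was at 7.67, 0.721 and 1.11 CPM in knockout and 0.189, 0.111 and 0.127 CPM in wild type. Tmem45a2 was at 0.543, 2.01 and 4.45 CPM in knockout and 0, 0.0737 and 0 CPM in wild type. Ankrd33b was highest in library 31, and Ankrd22 and Tmem45a2 in library 40. The scaffold gene ENSMUSG00000079192 was at 3.29, 2.96 and 4.82 CPM in knockout and 0.629, 0.295 and 0.222 CPM in wild type, with all 3 knockout libraries above all 3 wild-type ones. Gramd2, Gm7592 and ENSMUSG00000079190 had averages of 2.93, 2.27 and 2.12 CPM in knockout and 0.397, 0.280 and 0.198 CPM in wild type. Scaffold genes often have copies elsewhere in the genome, so the 2 without a symbol are uncertain.

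By symbol family the 42 genes were scattered. Solute carriers made up 4.76% of them against 1.81% of autosomal coding genes, but that is 2 genes (Slc6a12 and Slc9a4). Genes named as orphan or adhesion G protein-coupled receptors (Gpr55 and Gpr27) and as Tmem (Tmem178 and Tmem45a2) were 2 each as well, or 4.76% against 0.460% and 1.10%. C-type lectins, collagens, Zfp zinc fingers, stefins and cystatins, and chemokines and interleukins gave 1 each. Olfactory and vomeronasal receptors, 7.39% of autosomal coding genes, gave 0, as did homeobox genes, keratins and cytochromes P450. In the 18 gene lists used, which hold 317 genes, 6 of the 42 appear (Acod1, Col6a6, Dock1, Epx, Marco and Mecom) and 36 do not.

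The remaining marker lists are given beside the shares over all genes tested, 5.45% called higher and 3.12% called lower. Of the interferon-stimulated genes 4 were higher and 0 lower of 18 tested by edgeR (9 and 0 unadjusted, 6 and 0 by DESeq2), and 20 of 22 were highest in knockout library 31 among the knockout libraries. The 4 became 0 without knockout library 31 or 40 or wild-type library 25 or 27, and 1 without wild-type library 29 or with total counts as the only scaling. Erythroid and megakaryocyte markers each had 1 higher and 0 lower of 7 tested (1 and 2 higher unadjusted, 0 lower in both, and 1 and 2 higher by DESeq2). The erythroid call was lost without knockout library 31 or 40 or wild-type library 27 or 29, and the megakaryocyte count was 3 without knockout library 32 and 0 without any other single library. Endothelial markers had 1 higher and 1 lower of 4 tested (each 0 or 1 when a library was left out), and dendritic cell markers 0 higher and 1 lower of 9 (0 and 2 unadjusted, 0 and 1 by DESeq2). The dendritic call was lost without knockout library 32 or 40 or wild-type library 25 or 29, and 2 were lower without wild-type library 27. T and NK cell markers had 0 calls of 9 tested by edgeR, with 3 higher unadjusted and 2 by DESeq2, and 4 of 13 were called higher without knockout library 32. B cell, adipocyte, epithelial and neuronal markers had 0 calls of 5, 4, 3 and 3 tested by edgeR, also 0 at an unadjusted p under 0.05 and 0 by DESeq2. Epithelial markers summed to 7.13, 5.35 and 7.71 CPM in knockout and 5.78, 15.9 and 10.4 CPM in wild type, with 6 of 12 at 0 in all libraries.

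The 42 genes did not sit in large blocks. Chromosomes 1 and 6 held 5 each (11.9%, against 5.82% and 5.36% of autosomal coding genes). Within 500 kb of each other lay only Aldh3b3 with Aldh3b2 and, on chromosome 1, Gm7592 with Gpr55 at 386140 bases. Of the 82 nearest coding genes that are not members, 46 were tested; 7 were called higher (15.2%, against 5.45% of all genes tested) and 5 lower (10.9%, against 3.12%), and their median log2 fold change was 0.01. The 7 were Stfa1, Cstdc5, Lyz2, Stambpl1, ENSMUSG00000079794, Kctd12 and Il18rap, of which Stfa1, Cstdc5 and Lyz2 are relatives of the member they adjoin. Without knockout library 40 the number was 3, and without knockout library 31 or wild-type library 25 or 29 it was 4.

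Col6a6 starts 2.05 Mb from Rbm5 on chromosome 9 and is the only one of the 42 within 10 Mb of it. In that window 19 of 173 tested genes were called higher (11.0%) and 9 lower (5.20%), against 5.45% and 3.12% of all genes tested. The 19 include Col6a6, which was picked on this contrast. Pik3r4, 152 bases from Col6a6, averaged 48.3 CPM in knockout and 49.2 CPM in wild type (log2 fold change 0.09 with TMM scaling and -0.03 with total counts alone, edgeR adjusted p = 0.629 with TMM).

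Overlapping genes could lend counts to some of the 42. Of the 42, 15 overlap another annotated gene, and that gene was the higher one for Arg2 (Vti1b, on average 34.5 CPM in knockout and 39.3 CPM in wild type) and Clec2g (the long noncoding RNA Gm15987, 11.8 and 4.73 CPM). Both lie on the opposite strand, and how strand was used in counting is not stated, so Arg2 and Clec2g are uncertain. Ppp1r42 overlaps a long noncoding RNA on its own strand, ENSMUSG00000121270, which averaged 1.75 CPM in knockout and 0.437 CPM in wild type against 2.16 and 0.453 CPM for Ppp1r42, so it is uncertain too.

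The edge of the set is soft. Just inside it lay Gpr27, Zfp987 and Slc9a4, at 2.00, 2.07 and 2.07 CPM in knockout, and Muc3a, Stap2 and Col6a6, at 0.492, 0.491 and 0.484 CPM in wild type. Just outside lay the carboxypeptidase gene Cpm, the growth factor gene Igf1 and Psd2, at 1.91, 1.88 and 1.87 CPM in knockout. Orm1, an acute-phase protein, Scrg1 and Adamtsl3 averaged 8.23, 5.27 and 3.36 CPM in knockout and missed the set through wild-type averages of 0.512, 0.527 and 0.564 CPM.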

How the data were processed

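RNA was extracted with TRIzol and sequenced by a company, per the labels' protocols. The authors deposited counts, 1 whole number per gene and library for 6 libraries, not normalized. Salmon and limma are named, with GRCm38 and mm10, per the submitters' processing notes. Strand use and filters are not stated in these sources. Gene names, biotypes, coordinates and lengths are those of the table, and all 6 count columns matched a sample by title.

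CPM is a count over its library's total, without further scaling. All genes were fitted with edgeR 4.0.16 (R 4.3.3): filterByExpr (minimum count 10, minimum total 15), TMM, robust quasi-likelihood, no covariates, and Benjamini-Hochberg adjustment over 15963 genes at 0.05. Nothing shows that the 6 libraries came from separate mice beyond the word independent in the labels, so p-values measure the spread between these libraries. Intervals from counts are exact at 95%. On simulated data (5 draws, 200 changed genes each), the fit called 64.8% of genes changed 2-fold and 89.2% of those changed 4-fold, with false genes making up 7.85% of calls. The changed genes were drawn only from genes above a set average count. Members with few counts, such as Gpr27 and Zfp987, lie below it, so these rates do not cover them. Alternatives included DESeq2 1.42.0 and limma-voom (limma 3.58.1).

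The members, gene lists, roles and tests were chosen with earlier results of these data known. Every member is accounted for. Named in full were the members with the highest knockout averages, the most and least even, those with 0 wild-type counts, members of a list or run, those near Rbm5, and genes beside the thresholds. Other named genes are list members, relatives or neighbours. Promoter windows are RefSeq's for GRCm38.p6, with members on chromosome 18 left out. The 17 members without a window, which include Lipg and Psma8 on that chromosome, are not shown. The counts of 1 of the 18 gene lists are not reported here.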

Additional observations from a re-analysis of the deposited data

How the results depend on the processing

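The set held 42 genes with CPM over total counts, 44 with TMM-scaled totals, 45 with RLE-scaled totals and 37 with group medians. It held 11 genes with a knockout average of at least 4 CPM and 7 with a wild-type average under 0.1 CPM, of which 0 reached 2 CPM in every knockout library. Leaving out each library in turn gave 29 to 47 genes, and leaving out wild-type libraries 27 and 29 together, an alternative added after seeing the data, gave 62. With each wild-type library left out in turn, 8 to 12 genes reached 2 CPM in every knockout library, against 6 with all, and the median share of the highest knockout library was 50.9 to 56.4%.

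The fit over all genes called 1368 genes, DESeq2 called 2607, and leaving out a library gave 347 to 1227 (453 without wild-type libraries 27 and 29 together, where the remaining wild-type library is assumed to vary like the knockout ones). Members called higher were 24, with 39 by DESeq2, 9 to 32 without a library, and 6 without wild-type libraries 27 and 29. Neighbouring genes called higher were 7, with 3 to 6 without a library and 2 without wild-type libraries 27 and 29. Col6a6, Dock1, Dnah6, Sva, Zfp987 and ENSMUSG00000079192 were the 6 members called in every fit that left out 1 library. Total counts as the only scaling gave 597 higher and 682 lower genes, against 870 and 498 with TMM, and shifted the median over the genes tested by -0.12 on the log2 scale. The cause of these differences was not tested, beyond the smaller number of libraries in the fits that left some out. No paired analysis was possible because the groups share no replicate number. Depth limits the lowest levels, since a count of 0 in a library allows 0.0943 to 0.114 CPM.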

Other observations

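The same thresholds in other classes of rows picked up 12 noncoding, TEC or pseudogene rows on autosomes and 1 protein-coding gene on the X chromosome, Tktl1, a transketolase-like gene, which averaged 2.15 CPM in knockout and 0.190 CPM in wild type. Among the noncoding rows, Mirt2 averaged 2.85 CPM in knockout and 0.448 CPM in wild type, and 1700071M16Rik 3.11 and 0.238 CPM. These rows were chosen on the values given, so they are a description.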
